A study of Mus musculus with 12 samples.

Results

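The crossed pairing of cochlear pieces set the homozygous base against the wild-type middle piece, and the homozygous middle piece against the wild-type base, to ask which genes still differed when pieces with like amounts of nerve RNA were compared. Its members were the 8 middle and basal libraries out of 12 libraries in the series, chosen by genotype and turn from the sample titles, 2 repeats in each of the 4 groups. The study sequenced RNA of the mouse cochlea, cut into apical, middle and basal turns, from wild-type males and from males homozygous for 35delG, a 1-base deletion in *Gjb2*, at postnatal day 14. The homozygous mice (labelled KO) came entirely from male embryonic stem cells put into tetraploid embryos, were born by cesarean section, were reared by ICR females and carried an allele first made in a haploid embryonic stem cell line, with a background of almost C57BL/6J. The wild-type mice (labelled WT) were males of the same age that were bought, so genotype and origin of the animals cannot be told apart in any comparison. The number of mice and of stem cell lines behind each library is not given in the sources used here, while the study calls the repeats biological, and p-values measure only the spread between these libraries.

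Each crossed comparison also differs in turn, the first setting base against middle and the second middle against base. The mean of both counts each turn once in each genotype and equals the mean genotype difference over the middle and basal pieces. The crossed comparisons share no library with each other. Each does share libraries with the same-turn comparisons, whose values are given beside them only side by side. Whether pieces of the same cochlea or mouse entered both crossed comparisons, or the apical libraries, is not given in the sources used here. Agreement among them is therefore not known to be agreement between separate animals.

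The cochlea is a coiled tube in which sensory hair cells, their supporting cells and the tectorial membrane above them form a strip along the coil, while the spiral ganglion neurons and their myelinated axons run through the central bone. *Gjb2* encodes connexin 26, a gap junction protein of the supporting and connective tissue cells. A piece cut from the coil holds all of these tissues in proportions that depend on where the cut falls. In such bulk RNA, fewer cells of a type and less RNA per cell cannot be told apart.

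Values are FPKM, a read level corrected for transcript length and library size, divided by 1 scaling factor for each library. Differences are homozygous minus wild-type on the log2(scaled FPKM + 1) scale, ± SE, with n = 2 libraries a group, from limma. Called genes had a fold change above 2 together with an adjusted p below 0.01. In all, 15584 genes had at least 1 FPKM in 2 or more of the 8 libraries and were tested. The deposited FPKM of the 8 libraries summed to between 323394 and 408162, and their depth is unknown. The mitochondrial genome took from 7.64% of the FPKM in 1 homozygous middle library to 20.6% in wild-type middle repeat 2. The repeats of the wild-type base stood apart most, at a Euclidean distance of 104, against 66 to 74.9 for the repeats of the other 3 groups.

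Under crossed pairing the libraries lay closer together. The distance between homozygous base and wild-type middle libraries was 88 on average (79.3 to 99.6, 4 pairs), and that between homozygous middle and wild-type base libraries was 83.4 (72.7 to 98.2). Pairs of the same turn were 106 apart in the middle (101 to 110) and 128 apart in the base (105 to 154). The nearest library to each wild-type basal library was a homozygous middle library, at 72.7 and 73, and not the other wild-type basal library. The homozygous basal libraries and the wild-type middle libraries were each nearest to their own repeat. The spread of all tested genes followed the same order, with 6.61% and 3.75% of genes over 2-fold apart in the crossed comparisons and 12.7% and 17.9% in the same-turn comparisons of middle and base.

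**Figure D1:**
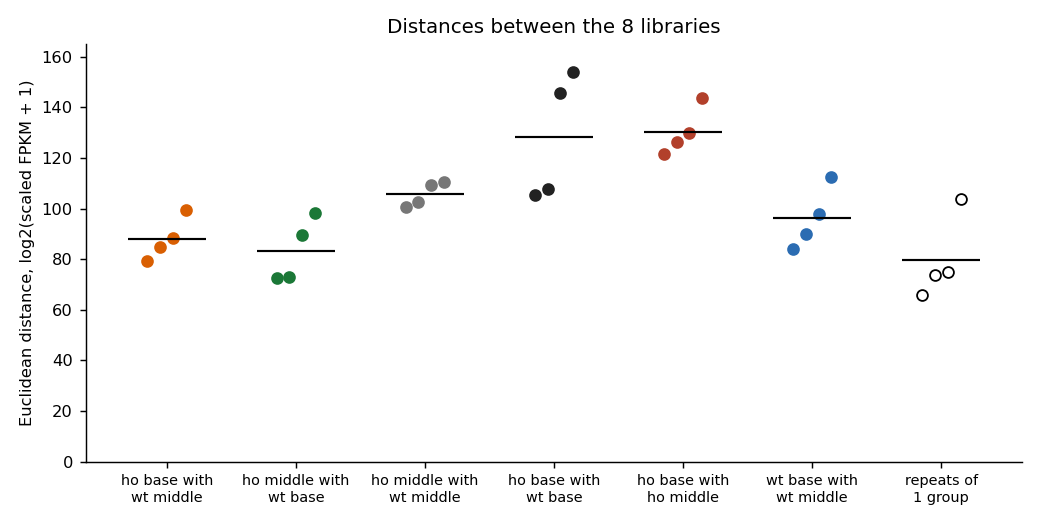
Euclidean distance between pairs of the 8 libraries over 15584 genes on the log2(scaled FPKM + 1) scale, by kind of pair (ho, homozygous; wt, wild-type). Points are pairs and bars are means; the crossed pairs average 88 and 83.4, the same-turn pairs 106 and 128, and 3 of the 4 pairs of repeats lie at or below 74.9.

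The nerve was where crossed pairing changed most. Over the 20 spiral ganglion neuron genes tested, the median difference was −3.34 in the middle turn and 3.97 in the base, but 0.72 and 0.14 in the crossed comparisons, beside medians of 0.03 and 0.00 over all genes. The mean log2 level of this list was 6.17 and 6.59 in the homozygous base and 5.67 and 5.70 in the wild-type middle, so this pair was rich in nerve RNA and its libraries did not overlap. It was 3.97 and 1.97 in the homozygous middle but 1.04 and 4.80 in the wild-type base, where the repeats lay on either side of the homozygous ones. The pairing was proposed with these nerve levels known, so the small medians are a description of how the pieces were matched.

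The synaptic vesicle list followed the neurons, with medians of 0.79 and −0.07 over 36 genes, against −1.88 and 2.67 in the same turns. Of its members, 28 were higher without overlap in the homozygous base than in the wild-type middle, and 0 in the other pair (23.4% and 15.4% of all genes). The list of Schwann cells and myelin had medians of 0.24 and −1.12 over 18 genes, and that of oligodendrocytes and astrocytes 0.90 and −1.32 over 15 genes. The oligodendrocyte list was at a mean log2 level of 5.44 in 1 wild-type middle library and 1.33 in the other, and at 1.08 and 4.10 in the wild-type base. RNA of this list thus differed between the repeats of both wild-type groups.

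Not every other list had small crossed medians. Those of macrophages were 0.06 and −0.26 over 13 genes, and those of supporting cells −0.21 and 0.49 over 12 genes. The tectorial membrane list had a median of −2.54 in the first crossed comparison and 1.04 in the second, over 6 genes. Its mean log2 level was 0.94 and 0.35 in the homozygous base, 3.79 and 3.81 in the wild-type middle, 5.03 and 5.67 in the homozygous middle and 4.19 and 4.40 in the wild-type base. Hair cell genes, 30 of them, had medians of −0.69 and −0.08, with levels of 0.99 and 1.12 in the homozygous base against 1.50 and 2.43 in the wild-type middle. Neutrophil genes had medians of 0.22 and 1.04, and were at 7.60 in 1 homozygous middle library and 3.65 in the other. Ciliated and secretory epithelium genes summed to 3445 scaled FPKM in wild-type base repeat 2 and to between 8.78 and 19.4 in the other 7 libraries. Over the 21 cell-type lists, the median size of the list difference was 0.38 and 0.72 in the crossed comparisons and 0.86 and 1.03 in the same-turn ones. The number of lists past a median of 1 in either direction was 1 in the first crossed comparison, 7 in the second, 9 in the middle and 11 in the base.

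**Figure D2:**
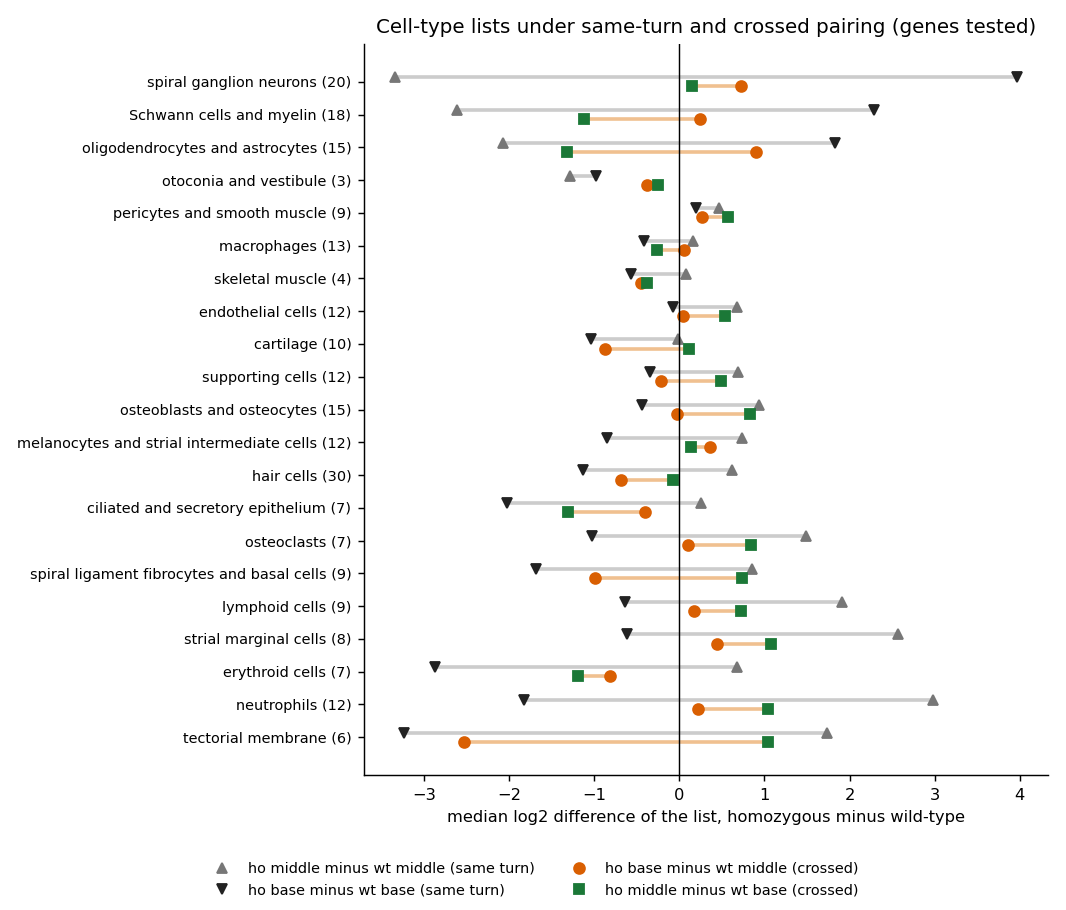
Median log2 difference, homozygous minus wild-type, of 21 cell-type lists (genes tested in brackets) under same-turn pairing (triangles) and crossed pairing (circles and squares). The neuron list moves from −3.34 and 3.97 to 0.72 and 0.14, while the tectorial membrane list stays apart at −2.54 and 1.04.

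Few genes were called. In the homozygous base against the wild-type middle, 5 genes were called (0.0321% of the genes tested), 4 higher (0.0257%) and 1 lower (0.00642%), and 9.95% of genes had an unadjusted p under 0.05. In the homozygous middle against the wild-type base, 6 genes were called (0.0385%), 5 higher (0.0321%) and 1 lower (0.00642%), and 4.5% had an unadjusted p under 0.05. The same 5 genes were called in both, in the same direction (0.0321%): *Atp6v0c-ps2*, *Eno1b*, *Tpm3-rs7* and *Gm4735* were higher in the homozygous pieces and *Thrb* was lower. The sixth gene of the second comparison, *Gm10260*, had an adjusted p of 0.0128 by limma in the first. In the mean of both, 8 genes were called (0.0513%), 6 higher (0.0385%) and 2 lower (0.0128%), adding *Gm10260*, *Gm14038* and *Eif2s3y*. All 8 separated the 4 homozygous from the 4 wild-type libraries. The calls were at the limit of 2 repeats a group: with any 1 of the 8 libraries left out, 0 genes were called in both comparisons, and the mean called 0 genes without either wild-type middle library and 31 without wild-type base repeat 2.

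The genes called higher were low or listed at 0 in the wild-type pieces. *Atp6v0c-ps2*, a processed pseudogene copied from a subunit gene of the proton pump V-ATPase, was at 34.1 and 41.7 scaled FPKM in the homozygous base and at 1.47 and 1.24 in the wild-type middle. In the second pair it was at 25.2 and 23.7 in the homozygous middle and at 0.725 and 1.49 in the wild-type base. The differences were 4.04 ± 0.23 (adjusted p = 0.00571, limma) and 3.62 ± 0.23 (adjusted p = 0.00539), with groups far apart in both.

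*Tpm3-rs7*, related in sequence to the tropomyosin gene *Tpm3*, was at 10.5 and 10.02 in the homozygous base, 0.195 and 0.239 in the wild-type middle, 19.2 and 14.7 in the homozygous middle and 0.207 and 0.256 in the wild-type base. It differed by 3.21 ± 0.20 (adjusted p = 0.00571, limma) and 3.85 ± 0.20 (adjusted p = 0.00539). *Eno1b* and *Gm4735* are copies of *Eno1*, which encodes the glycolytic enzyme enolase. *Eno1b* lay between 10.5 and 13.4 in the 4 homozygous libraries and between 0.128 and 0.208 in the 4 wild-type ones, with differences of 3.44 ± 0.20 and 3.45 ± 0.20 (adjusted p = 0.00571 and 0.00539, limma). *Gm4735* lay between 8.25 and 10.4 in the homozygous libraries and between 0.0705 and 0.258 in the wild-type ones, with differences of 3.11 ± 0.21 and 3.10 ± 0.21 (adjusted p = 0.00706 and 0.00607, limma). Both copies of *Eno1* thus had nearly the same level in all 4 homozygous libraries, whichever turn the piece came from.

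*Gm10260* is a copy of the ribosomal protein gene *Rps18*. It was at 13.0 and 22.5 in the homozygous base and at 36.8 and 23.5 in the homozygous middle, and was listed at 0 in 3 wild-type libraries and at 0.0069 in the other, so no fold is given (adjusted p = 0.00539 in the second comparison and 0.000783 in the mean, limma). *Gm14038*, a processed pseudogene copied from the zinc finger gene *Zfand1*, lay between 3.58 and 4.42 in the homozygous libraries and at 0.154 or less in the wild-type ones (mean of both differences 2.23 ± 0.15, adjusted p = 0.00634, limma).

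Both genes called lower were at or near 0 in the homozygous pieces. *Thrb* encodes thyroid hormone receptor beta, a receptor known to be needed for hearing to mature, and lies on chromosome 14 from 17660896 to 18038090 (mm10). It was at 8.76 and 7.59 in the wild-type middle and 8.60 and 7.24 in the wild-type base, listed at 0 in both homozygous basal libraries, and at 0.0355 and 0.0082 in the homozygous middle (adjusted p = 0.00571 and 0.00539, limma). *Eif2s3y*, a Y-linked gene for a translation initiation factor subunit, was at 13.0 and 31.4 in the wild-type middle, 29.9 and 14.2 in the wild-type base, 0.0315 in 1 homozygous middle library and listed at 0 in the other 3 homozygous ones (adjusted p = 0.0523, 0.0850 and, for the mean, 0.00949, limma). The wild-type repeats of *Eif2s3y* differed from each other by more than those of *Thrb*.

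The 4 apical libraries, which neither crossed comparison used but which may come from the same cochleae, showed the same 8 genes apart by genotype. *Thrb* was listed at 0 in both homozygous apical libraries and was at 12.1 and 11.6 in the wild-type ones. *Eif2s3y* was listed at 0 in both and was at 25.9 and 22.8. Apical *Gm10260* was at 19.1 and 29.8 against 0.0756 and 0, and apical *Atp6v0c-ps2* at 26.7 and 32.8 against 0.901 and 1.23. The apical libraries were scaled among themselves, and all 8 genes were called there with the sign they had in the crossed comparisons (the apical comparison called 93 genes, 0.597%, with 58 higher, 0.372%, and 35 lower, 0.225%).

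**Figure D3:**
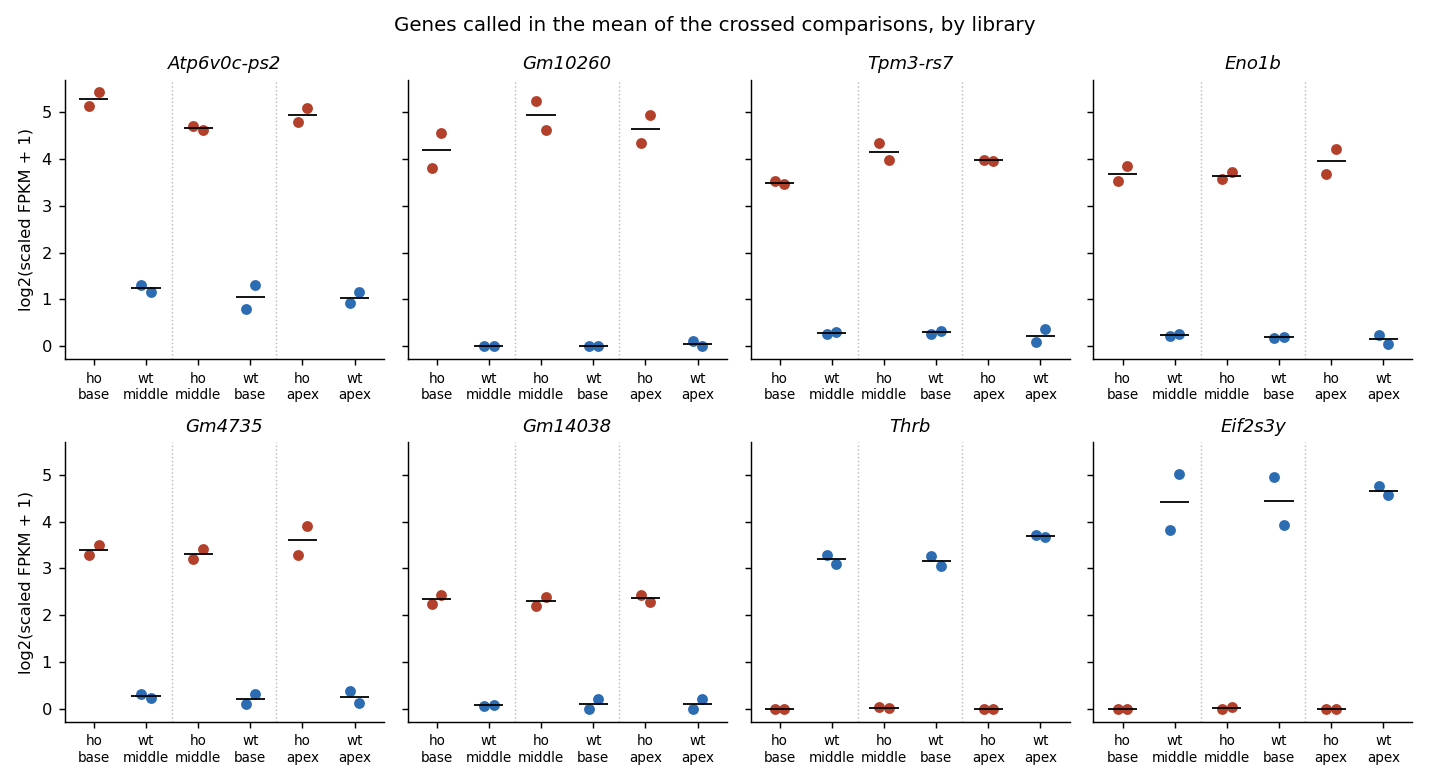
Level of the 8 genes called in the mean of the crossed comparisons in all 12 libraries, as log2(scaled FPKM + 1), in the order of the crossed pairs (dotted lines part the pairs; the apical pair was scaled separately). Points are libraries, red homozygous and blue wild-type, and bars are means of 2; no homozygous library overlaps a wild-type one in any of the 8 genes.

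The genes called higher share a property that the comparison did not use: each is a close copy of another gene. The 4 pairs below show how little of the sequence tells copy and partner apart, which bears on where reads of one can be counted. Each stretch holds 100 bases, 5′ to 3′, of the partner's coding sequence and of the copy's transcript, from GENCODE vM21 transcripts (GRCm38), with the bases that differ in capitals, and substitutions are counted from the first base of the partner's coding sequence, the partner's base first.
Rps18, coding bases 334 to 433: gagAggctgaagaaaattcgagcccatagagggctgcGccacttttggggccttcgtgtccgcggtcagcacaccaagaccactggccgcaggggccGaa
Gm10260, transcript bases 378 to 477: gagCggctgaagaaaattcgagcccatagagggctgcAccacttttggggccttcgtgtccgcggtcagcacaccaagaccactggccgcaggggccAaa
Atp6v0c, coding bases 61 to 160: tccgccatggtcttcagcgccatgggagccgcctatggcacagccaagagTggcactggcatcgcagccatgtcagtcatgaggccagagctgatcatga
Atp6v0c-ps2, transcript bases 61 to 160: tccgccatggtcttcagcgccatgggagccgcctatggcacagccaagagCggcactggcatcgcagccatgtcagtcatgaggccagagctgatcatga
Eno1, coding bases 1179 to 1278: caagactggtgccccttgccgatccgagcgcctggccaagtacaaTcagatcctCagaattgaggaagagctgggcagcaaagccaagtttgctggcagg
Gm4735, transcript bases 1179 to 1278: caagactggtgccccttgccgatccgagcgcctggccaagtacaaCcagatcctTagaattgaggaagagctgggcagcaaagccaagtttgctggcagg
Tpm3, coding bases 50 to 149: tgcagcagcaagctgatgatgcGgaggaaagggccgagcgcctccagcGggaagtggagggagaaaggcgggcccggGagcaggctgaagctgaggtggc
Tpm3-rs7, transcript bases 118 to 217: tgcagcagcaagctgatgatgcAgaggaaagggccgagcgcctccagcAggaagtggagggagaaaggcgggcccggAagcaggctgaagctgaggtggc

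*Gm10260* and *Rps18* differ in this stretch by A337C, G371A and G431A, and over the whole coding sequence of 456 bases by 4 mismatches (99.1% identity). *Atp6v0c-ps2* differs from the *Atp6v0c* coding sequence of 465 bases by T111C alone (99.8%). *Gm4735* differs from *Eno1* here by T1224C and C1233T and over 1302 bases by 5 mismatches (99.6%). *Tpm3-rs7* differs from *Tpm3* by G72A, G98A and G127A, all of its 3 mismatches over 744 bases lying in the stretch shown (99.6%). *Eno1b* matches *Eno1* at 99.4% (8 mismatches) and *Gm14038* matches *Zfand1* at 99.4% (5 mismatches).

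The annotation places *Gm10260* on chromosome 13 from 97760072 to 97760632 on the minus strand, as 1 exon that overlaps an exon of the long noncoding RNA *Gm26619* on the other strand, and without strand their reads cannot be told apart. *Atp6v0c-ps2* is 1 exon on chromosome 6 from 37806086 to 37806550, plus strand, and *Gm4735* 1 exon on chromosome 2 from 80837141 to 80838442, plus strand, and neither lies in another gene. *Tpm3-rs7* is 1 exon on chromosome 14 from 113314608 to 113316754, plus strand, and *Gm14038* 1 exon on chromosome 2 from 134762824 to 134763630, minus strand, again in no other gene. The copies are thus spread over several chromosomes.

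None of the partner genes passed the test. *Rps18* was at 115 and 230 in the homozygous base, 312 and 299 in the wild-type middle, 345 and 181 in the homozygous middle and 295 and 457 in the wild-type base (differences −0.91 and −0.55, adjusted p = 0.569 and 0.999, limma). *Atp6v0c* was at 96.4 and 126, 104 and 111, 74.7 and 68.1, and 86.0 and 102 in the same order (differences 0.04 and −0.39). *Eno1* and *Tpm3* differed by −0.19 and −0.36 in the first comparison and by 0.05 and −0.23 in the second. Over the 9 partners of 10 copies examined, none passed an adjusted p of 0.05, and their differences lay between −0.91 and 0.71. Of all genes, only 0.0578% and 0.0385% passed that threshold with over 2-fold in the first and second comparison. None of 9 thus does not set the partners apart from other genes. *Zfand1*, the partner of *Gm14038*, was the other way from its copy, at 5.62 to 7.41 in the 4 homozygous and 7.89 to 11.2 in the 4 wild-type libraries without overlap (differences −0.53 and −0.43, adjusted p = 0.463 and 0.999, limma). The copies *Hmga1b*, *Rps3a2*, *Gm14292* and *Gm13443*, which complete the 10 and were chosen after their values were seen, were higher in the homozygous libraries but not called (smallest adjusted p by limma for *Hmga1b*, at 0.124 in the first comparison, 0.167 in the second and 0.0267 in the mean). In all 10 copies every homozygous library of the 12 was above every wild-type one, as in 0.841% of all genes tested. All 10 copies are among the genes over 2-fold higher without overlap in both crossed comparisons. Their separation within these pairs is therefore no further result. In the first pair the partners *Rps18*, *Eno1*, *Tpm3*, *Rps3a1* (of *Rps3a2*), *Wtap* (of *Gm14292*) and *Zfand1* were lower without overlap, as were 20.1% of all genes. In the second pair *Atp6v0c* and *Zfand1* were lower without overlap (14.5% of all genes) and *Glo1*, the partner of *Gm13443*, was higher (15.4%). Reads were kept only where they mapped to 1 place, and how reads from the bases shared by copy and partner were divided was not tested.

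**Figure D4:**
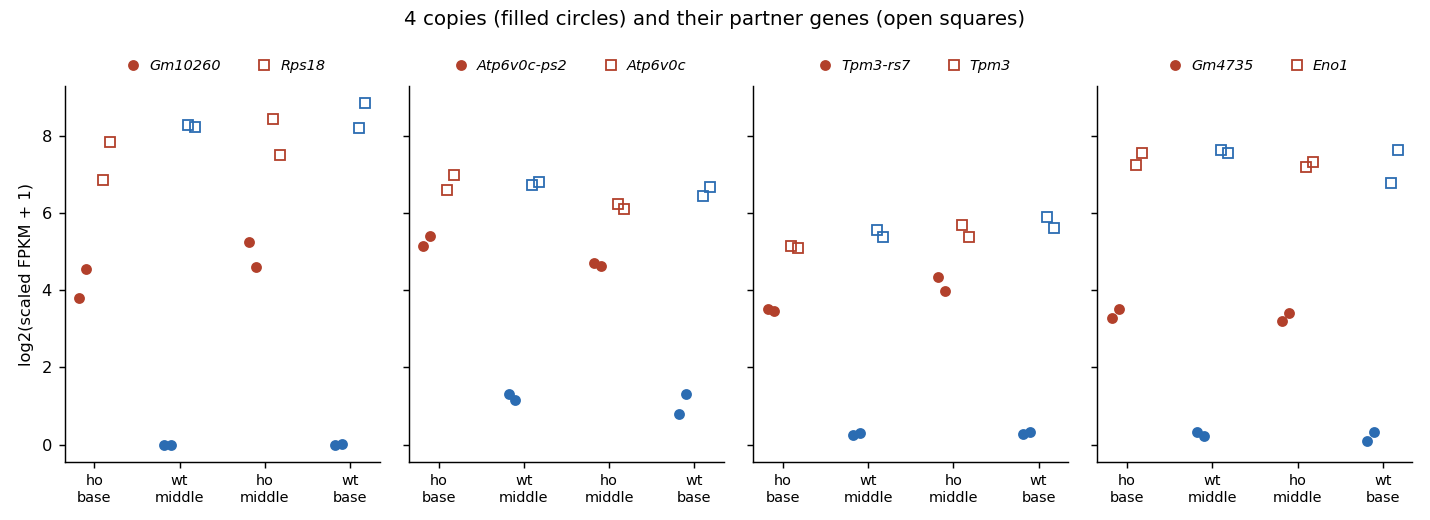
Level of 4 copies (filled circles) and of their partner genes (open squares) in the 8 libraries, as log2(scaled FPKM + 1), red homozygous and blue wild-type. The copies are at 1.49 scaled FPKM or less in the wild-type pieces and at 8.25 or more in the homozygous pieces. Over all 8 libraries together the ranges of the partners meet or overlap between the genotypes. Within the pairs, *Rps18*, *Eno1* and *Tpm3* are lower without overlap in the homozygous base, and *Atp6v0c* in the homozygous middle.

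A wider view counted genes whose libraries did not overlap. Without overlap, 3650 genes were higher and 3131 lower in the first crossed comparison (23.4% and 20.1% of the genes tested), and 2407 were higher and 2258 lower in the second (15.4% and 14.5%). Of these, 893 were higher in both, which is 24.5% of the first list and 37.1% of the second, and 647 were lower in both, which is 20.7% and 28.7%. The shared genes were 1540 (9.88%; 5.73% higher, 4.15% lower). Another 502 genes went opposite ways (3.22%). With a difference over 2-fold in both as well (a count that was 329 without wild-type base repeat 2), 79 genes were left (0.507%), 36 higher (0.231%) and 43 lower (0.276%), and 14 went opposite ways (0.0898%). The genes nearest the 2-fold limit were *Enho*, with a smaller difference of −1.002, inside it, and *Krt80*, with 0.99, outside it. In 53 of the 79 all 4 homozygous libraries lay beyond all 4 wild-type ones (0.34%; 28 higher, 0.18%, and 25 lower, 0.16%), as they did in 643 of all genes tested (4.13%; 2.48% higher, 1.65% lower).

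These 79 genes were also read in the apical pieces, which may come from the same cochleae. In 62 of them the apical libraries did not overlap in the same direction, and in 7 they did not overlap in the opposite one, where 29.3% of all genes were higher and 29.7% lower without overlap in the apex. Of the 53 genes that parted all 8 libraries, 46 were apart in the apex in the same direction and 0 in the opposite one. The apical comparison called 23 of the 79, all 23 with the sign of the crossed comparisons.

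**Figure D5:**
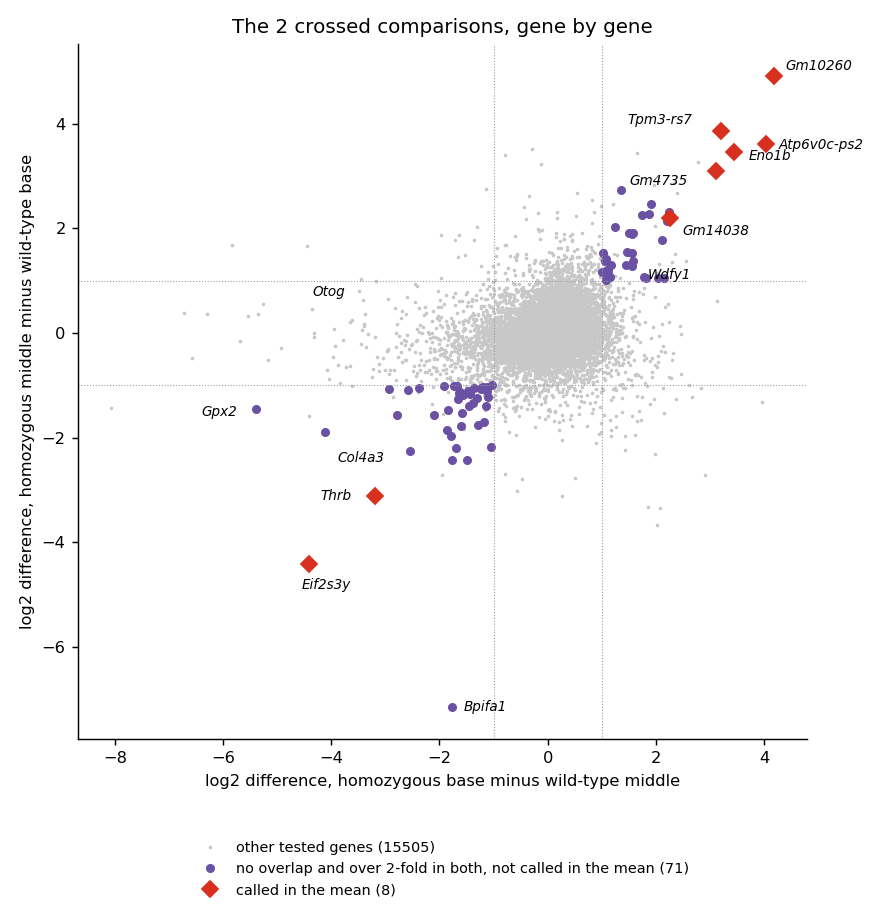
Log2 difference of each of 15584 genes in the first (x axis) and the second (y axis) crossed comparison, with dotted lines at 2-fold. Diamonds are the 8 genes called in the mean, and the other 71 genes that were over 2-fold apart without overlap in both are purple; the called genes lie near the diagonal, far from the bulk of genes, and *Otog* is low in the first comparison only.

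Copies were frequent among the genes over 2-fold apart in both, higher or lower, while annotated processed pseudogenes were found only among the higher ones. Of the 36 higher genes, 7 are annotated as processed pseudogenes, as are 248 of the 15584 genes tested, and none of the 43 lower genes is. Without the 2-fold limit, 17 of the 248 were higher and 4 lower with all 8 libraries apart. These are 6.85% and 1.61%, against 2.48% and 1.65% of all genes, so the lower side was near the share of all genes. By sequence, 453 of the genes tested (2.91%) have a near-copy, a transcript of another gene that covers at least 80% of theirs at 90% identity or more. Near-copies numbered 10 among the 36 higher and 7 among the 43 lower genes (2.21% and 1.55% of the genes with a near-copy, against 0.231% and 0.276% of all genes). For those, how reads were split with the copy is uncertain.

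Among the genes with no near-copy, 3 from a stretch of chromosome 1 were apart in all 8 libraries, though none was called in either crossed comparison. The stretch was chosen after the values were seen, and 4.13% of all genes tested were apart in this way. Of 919 genes tested on chromosome 1, 8 were among the 79 (0.871%, against 0.507% of all genes). The share was higher on chromosome 14 (0.935%), the X (1.03%) and Y (37.5%) chromosomes and the mitochondrial genome (8.57%). *Col4a3* and *Col4a4*, which encode collagen chains of basement membranes and lie next to each other from 82448423 to 82722059 (mm10), were low in the homozygous pieces. *Col4a3* was at 2.30 and 1.57 in the homozygous base, 12.2 and 20.8 in the wild-type middle, 3.95 and 3.84 in the homozygous middle and 22.9 and 21.9 in the wild-type base (differences −2.54 ± 0.27 and −2.26 ± 0.27, adjusted p = 0.0523 and 0.113, mean 0.0107, limma). *Col4a4* was between 2.19 and 5.22 in the homozygous libraries and between 10.6 and 21.5 in the wild-type ones. *Wdfy1*, which lies from 79702262 to 79761769 and encodes a protein of endosomes, was high instead, at 15.4 and 13.9, 4.39 and 4.02, 10.9 and 12.5, and 3.77 and 4.05 in the same order (differences 1.58 ± 0.16 and 1.37 ± 0.16, adjusted p = 0.0523 and 0.113, mean 0.0107, limma). In the apex *Wdfy1* was again higher, at 14.1 and 13.4 against 6.18 and 6.47, and *Col4a3* lower, at 3.49 and 3.97 against 14.6 and 13.6.

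Further genes were listed at 0 on 1 side. *H2-Ea-ps*, an MHC class II pseudogene, was listed at 0 in all 4 wild-type libraries and was at 1.90 and 3.83 in the homozygous base and at 11.6 and 1.44 in the homozygous middle. Its expressed neighbours *H2-Aa* and *H2-Ab1* overlapped between the genotypes in both pairs or in the second pair, with *H2-Aa* at 32.0 and 3.89 in the homozygous middle and 0.812 and 16.2 in the wild-type base. Cells that present antigen also carry *Cd74*, which was at 50.8 and 13.5 and at 6.48 and 23.3 in those libraries. *Xlr3b* on the X chromosome and *Gm29650* on the Y chromosome were at 1.56 to 5.22 in the wild-type libraries and at 0.0151 or less in the homozygous ones. *Zfp951* was at 1.03 to 1.30 in the wild-type libraries and listed at 0 in all 4 homozygous ones. These genes, other than *H2-Ea-ps*, were chosen after their values were seen, and none was called.

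Of the 8 Y-linked genes tested, 3 were among the 79 (37.5%, against 0.507% of all genes): *Eif2s3y* and *Gm29650*, lower in the homozygous libraries, and *Gm47283*, higher. *Ddx3y*, a helicase gene, was between 19.1 and 23.8 in the homozygous libraries and between 19.9 and 25.6 in the wild-type ones, and *Uty* between 4.91 and 5.70 and between 5.60 and 7.48. *Kdm5d*, a histone demethylase gene, was at 1.45 to 1.78 in the homozygous libraries and at 3.64 to 4.03 in the wild-type ones (differences −0.88 ± 0.19 and −0.92 ± 0.19, not called). Lower without overlap over all 8 libraries, like *Kdm5d*, were 1.65% of all genes. *Eif2s3x*, the X-linked relative of *Eif2s3y*, was at 10.3 to 14.6 and at 12.1 to 17.1.

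Further genes among the 79, chosen after their values were seen, were not called. Among the lower ones, *Gpx2*, which encodes a glutathione peroxidase, was at 3.78 and 2.89 in the homozygous base, 172 and 189 in the wild-type middle, 63.7 and 84.7 in the homozygous middle and 455 and 89.1 in the wild-type base. *Lox*, which cross-links collagen, was at 7.23 and 6.11, 37.1 and 72.8, 63.7 and 42.6, and 118 and 208 in the same order, so that its crossed groups parted but the homozygous middle lay within the wild-type range. *Fxyd2*, which encodes a regulator of the sodium pump, was at 0.405 to 6.39 in the homozygous libraries and at 7.52 to 51.1 in the wild-type ones. Among the higher ones, *Slc5a5*, the iodide transporter gene, was at 3.40 to 12.1 in the homozygous and 0.444 to 3.33 in the wild-type libraries, and *Fmod*, a collagen-binding proteoglycan gene, at 12.7 to 38.0 and at 3.39 to 10.4. *Bpifa1*, a secreted airway epithelium protein gene, was at 7.74 and 3363 in the wild-type base and at 9.16 or less in the other 6 libraries, so the size of its difference in the second pair rests on 1 library.

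Of the 35 genes tested on the mitochondrial genome, 3 were among the 79 (8.57%, against 0.507% of all genes). A list held 15 of the 35, and 14 of these 15 were lower in the first comparison and 14 in the second. The medians of the list were −0.97 and −0.58, beside 0.03 and 0.00 over all genes, and 0.03 in the apex. The ribosomal RNA *mt-Rnr1* was at 283 and 556 in the homozygous base, 1231 and 947 in the wild-type middle, 377 and 284 in the homozygous middle and 492 and 1089 in the wild-type base. The second pair parted there by little, and the 2 wild-type libraries with the highest mitochondrial share, middle repeat 2 and base repeat 2, also had the highest *mt-Co1*. None of these genes was called (0.0321% and 0.0385% of all genes were), and the part of RNA quality was not tested.

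The difference between the crossed comparisons, which grows where base and middle differ alike in both genotypes, called no gene (0.0%, and 0 by limma at an adjusted p of 0.05 too), with 664 genes (4.26%) at an unadjusted p under 0.05. *Otog* had the smallest p in this difference. *Otog*, which encodes a protein of the tectorial and otolithic membranes, was at 0.125 and 0.0534 in the homozygous base, 10.005 and 11.3 in the wild-type middle, 22.9 and 39.4 in the homozygous middle and 15.4 and 23.7 in the wild-type base. It differed by −3.42 ± 0.31 in the first comparison (adjusted p = 0.0349, limma, not called) and by 0.63 ± 0.31 in the second. *Ceacam16*, another tectorial membrane gene, was at 10.04 and 1.01 in the homozygous base and 1380 and 1146 in the wild-type middle, and at 276 and 438 against 2244 and 391 in the second pair. *Epyc*, a proteoglycan gene expressed by supporting cells, and *Otogl*, an otogelin-like gene, were among the 14 genes over 2-fold apart in opposite directions, both lower in the first comparison and higher in the second. Of these, *Otogl* was at 0.381 and 0.0465 against 2.02 and 3.74 in the first pair and at 12.5 and 17.3 against 3.88 and 5.83 in the second.

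Among the genes lower in the first comparison but not called, the smallest p belonged to *Otog* and to *Tm4sf1*, a tetraspanin-like membrane protein gene of endothelium. *Tm4sf1* was at 12.6 and 12.4 in the homozygous base, 47.1 and 40.0 in the wild-type middle, 31.8 and 29.5 in the homozygous middle and 49.9 and 46.9 in the wild-type base (differences −1.72 ± 0.16, adjusted p = 0.0377, and −0.64 ± 0.16, adjusted p = 0.782, limma). In the second comparison *Npy*, the neuropeptide Y gene, was at 15.8 and 29.1 in the homozygous middle and at 1.03 and 1.81 in the wild-type base (3.23 ± 0.35, adjusted p = 0.0867, limma). In the first its groups overlapped, at 2.80 and 1.48 against 2.33 and 2.37.

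Neither the mutated gene nor *Gjb6* passed the test. *Gjb2* lies on chromosome 14 from 57098600 to 57104702, and the level of an allele with a 1-base deletion does not check the labels. It was at 126 and 58.1 in the homozygous base, 138 and 262 in the wild-type middle, 250 and 446 in the homozygous middle and 430 and 252 in the wild-type base. The groups parted in the first comparison, lower in the homozygous base (−1.15 ± 0.54, adjusted p = 0.539, limma), and overlapped in the second (0.02 ± 0.54, adjusted p = 0.999). *Gjb6*, which encodes connexin 30, differed by 0.12 ± 0.31 and 0.34 ± 0.31 (adjusted p = 0.941 and 0.999, limma). Of 12 connexin and pannexin genes tested, none was called in either comparison, where only 0.0321% and 0.0385% of all genes were called.

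None of the 30 hair cell genes tested was called in either comparison (0.0321% and 0.0385% of all genes were called). *Otof*, which encodes otoferlin of the hair cell synapse, was at 0.0975 and 0.108 in the homozygous base, 9.30 and 24.6 in the wild-type middle, 13.9 and 19.1 in the homozygous middle and 31.9 and 20.4 in the wild-type base. Its groups did not overlap in either pair, but it was not called (−3.88 ± 0.44, adjusted p = 0.0715, and −0.62 ± 0.44, adjusted p = 0.999, limma). *Tmc1*, a gene of the mechanotransduction channel, differed by −0.86 ± 0.60 and −0.03 ± 0.60, and its groups overlapped in both pairs. *Myo15*, a myosin of the stereocilia, was at 0.0418 and 0.0254 against 0.115 and 1.17 in the first pair and at 3.82 and 8.26 against 1.18 and 5.38 in the second. *Myo3a* was at 1.78 or less in all 8 libraries, and *Myo3b* was below the filter. Of the 30, 14 were lower without overlap in the first comparison and 7 in the second, 5 of them in both, where the shares over all genes were 20.1%, 14.5% and 4.15%. Another 4 were higher without overlap in the second comparison, and 0 in the first.

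Of the 16 tested genes of the thyroid hormone system, *Thrb* was called in both comparisons and no other in either, where 0.0321% and 0.0385% of all genes were called. Without overlap, 8 of the 16 were lower in the first comparison and 3 in the second (20.1% and 14.5% of all genes), and 2 of them, *Thrb* and *Klf9*, in both (4.15%). *Thra*, which encodes the other receptor, was between 35.0 and 53.4 in all 8 libraries, with differences of −0.05 ± 0.25 and 0.17 ± 0.25. *Klf9*, a known target of the hormone, differed by −0.21 ± 0.24 and −0.45 ± 0.24. *Slco1c1*, a transporter of thyroxine, differed by −1.84 ± 0.29 (adjusted p = 0.198, limma) and −0.47 ± 0.29. Over the whole list the medians were −0.24 and −0.04. Apart from *Thrb*, no member of the 34 lists was called in either crossed comparison.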

How the data were processed

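The authors trimmed reads with fastp 0.20.0, aligned them to mm10 with STAR 2.7.3a, retained reads with 1 mapping place and computed expression in StringTie 2.0. They deposited FPKM for 37432 genes. Their DESeq2 tests were made on counts not used here, and the annotation version is not given in the sources used here. FPKM of the 8 libraries were divided by median-of-ratios factors (0.938 to 1.07) over 11705 genes and fitted as log2(scaled FPKM + 1) with limma 3.58.1 (R 4.3.3), with 4 group means, a mean-variance trend in eBayes, 4 residual degrees of freedom plus 2.62 from the prior, two-sided tests and Benjamini-Hochberg adjustment over 15584 genes. The values hold no steps of whole reads, so depth and counting error are unknown, and precision was read from repeats alone. The pseudocount shrinks the differences of low genes.

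Near-copies were found with minimap2 2.31 on GENCODE vM21 transcripts, which hold 15570 of the genes tested. Figures used matplotlib 3.10.9 in Python 3.11.15. The pairing, the 34 gene lists (4 genes are not in the table) and the genes always named were chosen with earlier results of these data known. Named genes were the mutated gene and partner, genes the study names or that stood out before, genes called in both crossed comparisons, in each the 5 largest called changes in a direction whose mean level reached 5 scaled FPKM and whose groups did not overlap (filled to 3 by smallest p among genes over 2-fold), and the 3 highest members of a list; any others were chosen after their values were seen. Not all were printed. Alternatives were pseudocounts of 0.1 and 0.01, other filters and scalings, all 12 or only 4 libraries, library weights, no trend, repeat-number blocks, other thresholds and each library left out.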

Additional observations from a re-analysis of the deposited data

How the results depend on the processing

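The direction of *Thrb* and of the copies named as called did not turn under any alternative run, but the calls depended on the processing. Counts of called genes are given for the first crossed comparison, the second, their mean and the genes called in both. They were 6, 3, 7 and 3 with a pseudocount of 0.1 and 0, 2, 5 and 0 with 0.01, which also left 39 apical calls. Without the filter they were 0, 0, 3 and 0 (and 0 in the apex), and with at least 5 FPKM in 2 libraries 1, 0, 4 and 0. Quantile normalization gave 1, 6, 9 and 1. A fit of all 12 libraries gave 19, 12, 18 and 10, with 18 in the apex, and fits of the 4 libraries of a comparison 3, 0 and 0 for the first, the second and both. At an adjusted p under 0.05 with limma they were 9, 6, 14 and 6, with 740 in the apex. The same-turn comparisons called 6 genes in the middle and 5 in the base, and 3 and 8, 0 and 5, 0 and 0, 0 and 1, 5 and 1, 29 and 702, 0 and 0, and 9 and 1040 under these settings in the same order. Equal sums gave 9 in the base and library weights 0. The 79 genes became 221 and 244 with the smaller pseudocounts. The ratio of mean crossed to mean same-turn distance, 0.733, was 0.546 with 1 minus Spearman correlation.

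Leaving out 1 library gave 0 to 26 calls in the first comparison (18 and 26 without wild-type base repeats 1 and 2, and 0 without any of the other 6 libraries), 0 to 1 in the second, 0 to 31 in the mean (31 without wild-type base repeat 2 and 0 without either wild-type middle repeat), 0 to 0 in both, 0 to 1 in their difference, 0 to 0 and 0 to 269 in the same-turn middle and base, and 0 to 31 in the apex. The 79 genes ranged from 66 to 329 (329 without wild-type base repeat 2) and the distance ratio from 0.679 to 0.809. Some small differences of named genes changed sign. *Tmc1* in the second comparison was 0.0377 with FPKM as deposited, 0.33 without homozygous middle repeat 1 and 0.29 without wild-type base repeat 1, and in the first it ran from −1.73 to 0.0137 (without wild-type middle repeat 2). *Gjb2* in the second ran from −0.40 without homozygous middle repeat 2 to 0.44, and was −0.36 without wild-type base repeat 2. *Npy* in the first ran from −0.43 to 0.18 (without homozygous base repeat 2), and *Gjb6* from −0.12 (without wild-type middle repeat 1) to 0.38. The cause of these changes was not tested.

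Same-numbered deviations correlated at −0.13 and −0.44 within the crossed pairs, whose 2 sides differ in genotype and so cannot share a mouse. Between middle and base of 1 genotype the correlation was −0.3 for wild-type libraries and −0.25 for homozygous ones. These values cannot tell whether same-numbered libraries share a mouse, since what a piece holds also depends on where the cut falls. With the repeat number as a block, the replicate block, the counts were 0, 0, 6 and 0, with 0 and 0 in the same turns and 539 in the apical comparison. Crossing the numbers between genotypes, chosen after seeing the data, gave 0, 0, 6 and 0, with 0 and 0 in the same turns. With 2 libraries a group and no read counts, a low gene listed at 0 cannot be told from one missed for want of depth.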
